A study of Mus musculus with 2 samples.

Results

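Interleukin 10 and its signalling chain were followed through 10 genes of the 27998 listed in each of 2 single-cell libraries: Il10, Il10ra, Il10rb, Tyk2, Stat3, Socs3, Nfil3, Bcl3, Etv3 and Sbno2. They were taken as the rows whose gene symbol is one of these names, and all 10 were found in both libraries. The libraries form 1 group. Mice were given 150000 LLC cells, a Lewis lung carcinoma line, in 100 µl of PBS into the pleural cavity, and on day 10 the fluid of the malignant pleural effusion was drained, its red cells were lysed and living CD45+ CD11b+ cells (leukocytes of mostly myeloid type) were sorted for droplet sequencing of RNA 3' ends. Strain, sex, age and the number of mice per library are not given in the labels, and no tumour-free animal belongs to the group. The labels do not say whether the libraries came from separate animals. RNA of Xist, a gene expressed in females, was found in 0 filtered cells of library 1 but in many of library 2. At least part of library 2 thus came from other animals than library 1. The general shift between the libraries is taken out in the class tests. A p-value thus measures only how evenly class differences repeat in these 2 libraries, and that spread may be technical, between animals or both.

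IL-10 is a secreted cytokine by which myeloid cells and lymphocytes restrain inflammation. It binds a receptor of the ligand-binding chain Il10ra and the accessory chain Il10rb, which carry the kinases Jak1 and Tyk2, and these activate the transcription factor Stat3. Stat3 then switches on the genes that carry out the response in macrophages: Socs3, an inhibitor of cytokine receptors other than that of IL-10 itself, and the transcriptional repressors or corepressors Nfil3, Bcl3, Etv3 and Sbno2. Several of these targets also answer to other signals, among them G-CSF and IL-6, which use Stat3 as well.

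The filtered cells numbered 1116 in library 1 and 2847 in library 2, of 1141 and 2908 barcodes with 11543829 and 20322996 gene UMIs (molecules counted). Cells were sorted into classes by their marker genes. Neutrophils numbered 77 and 1489 in libraries 1 and 2, monocytes 65 and 196, cells intermediate between monocytes and macrophages 79 and 148, monocyte-marked macrophages (C1q genes together with monocyte genes) 276 and 659, C1q macrophages 331 and 64, large resident macrophages 65 and 44, and dendritic cells 134 and 37. The cells of the lymphoid gates, 11 and 8 B cells and 2 and 21 T or NK cells, were too few to be tested. The T or NK cells of library 2 held a median of 17994 UMIs, and C1qa at 74.9 UMIs per 1000000 against 24.7 in its monocytes. Whether some of them are myeloid cells or doublets was not tested. The libraries stood apart in several ways. Their barcodes held a median of 9894 and 1954.5 UMIs, and neutrophils of library 2 a median of 1314. Of the 767 cells of library 1 with RNA of a Y-linked gene or of Xist, all 767 held Y-linked RNA alone. Library 2 carried 2 antibody tags, BC2 and BC3, whose meaning is not given in the labels. A cell was put on the BC2 side if its BC2 count exceeded its BC3 count. All other cells, also those with equal counts, were put on the BC3 side, so that side need not mean a BC3 signal. Xist alone was held by 951 of its 1062 such cells on the BC2 side and by 347 of 413 on the BC3 side. The sides split by class: 1463 of the 1489 neutrophils lay on the BC3 side and 628 of the 659 monocyte-marked macrophages on the BC2 side. Platelet markers summed to 10471 UMIs per 1000000 in library 1 and 2437 in library 2, and 4 cell barcodes occurred in both. Of the sorted proteins' own genes, Itgam, which encodes CD11b, was detected in 97.3% and 93.8% of C1q macrophages but in 55.8% and 34.1% of neutrophils. Among the 11 and 8 B cells it was detected in 54.5% and 0%. In such summed profiles a smaller share of expressing cells and less RNA per cell cannot be told apart.

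Il10 itself was scarce and lay almost wholly in library 2. Library 1 held 7 Il10 UMIs in 7 cells, 0.61 UMIs per 1000000 (CPM; 95% Poisson interval 0.25 to 1.26). Library 2 held 190 in 157 cells, 9.38 CPM (8.10 to 10.8): 126 of these cells had 1 UMI, 29 had 2 and 2 had 3. The level was 15.4-fold higher in library 2 (exact interval 7.31 to 38.7, for counting error only), and 13.1-fold higher (6.20 to 33.1) within monocytes and macrophages, where 7 and 158 UMIs lay. In monocyte-marked macrophages, with 0.5 CPM added to each level, the ratio of Il10 was 6.01. Of 8582 tested genes, 133, or 1.55%, had a ratio as high as that or higher. Il10 passed the low-count filter behind these genes through library 2 alone, where it is high, so this share cannot weigh the gap. The ratio also rests on 4 Il10 UMIs of library 1: without the added 0.5 CPM it was 7.75 (exact interval 2.94 to 28.9). With 1 library on each side the gap between the libraries has no replicate check. The parts of sex, of the tag sides and of the mice in it were not tested.

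Across the classes of library 2, Il10 was spread over monocytes, macrophages and neutrophils but was not seen in dendritic cells. Monocyte-marked macrophages carried the most UMIs, 112 in 91 cells, at 11.2 CPM (9.22 to 13.5). Intermediate cells stood at 11.6 (7.25 to 17.5), monocytes at 8.66 (4.73 to 14.5) and large resident macrophages at 8.60 (3.16 to 18.7). Those intervals overlap, so these 4 levels did not differ beyond their counting error. C1q macrophages, with little monocyte RNA, held 4 UMIs, 4.796 CPM (1.31 to 12.3), and 4 UMIs in 2 cells of the T or NK gate gave 9.99 (2.72 to 25.6). In library 1 the few UMIs were 4 in monocyte-marked macrophages, 2 in C1q macrophages and 1 in large resident macrophages, while neutrophils, monocytes, intermediate and dendritic cells had 0. The mean over the 2 libraries in monocyte-marked macrophages was 6.32 ± 6.90 CPM (SD, n = 2).

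Dendritic cells had 0 Il10 UMIs in both libraries among 2009695 UMIs. At the level of monocyte-marked macrophages, 4.66 UMIs would have been counted in those of library 2, and at the level of C1q macrophages 2.00. With a count of 3 in library 2 as the floor of dendritic cells, 7.21 CPM, the level in monocyte-marked macrophages was 1.55 times that floor and in neutrophils 1.05 times. The interval of monocyte-marked macrophages, 9.22 to 13.5, lay above the floor. That of neutrophils, 4.40 to 12.1, held it, so these counts show no difference of neutrophils from dendritic cells beyond counting error. In library 1 neutrophils also had 0 UMIs. In the test for any difference between the classes Il10 was the 1 member that did not pass (edgeR quasi-likelihood test, adjusted p = 0.0937; 0.0548 to 0.505 over the alternatives that gave a value). The contrast of dendritic cells with neutrophils did pass (adjusted p = 0.0119), and without the replicate block, which pairs the classes of 1 library, it did not (adjusted p = 0.109, in a range of 0.00568 to 0.109 over the alternatives that gave a value). All 17 neutrophil UMIs behind it came from library 2.

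**Figure D1:**
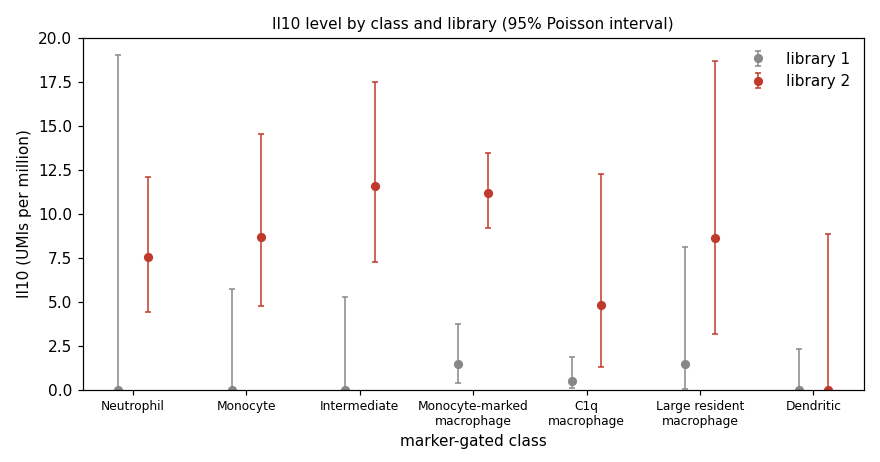
Il10 in CPM for 7 marker-gated classes (x axis) in library 1 (grey) and library 2 (red), with 95% Poisson intervals. In library 2, 6 classes lie between 4.796 and 11.6 and dendritic cells at 0, while library 1 lies at or below 1.46 in every class shown.

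Neutrophil-gated cells of library 2 held 17 Il10 UMIs in 15 of 1489 cells, 7.55 CPM (4.40 to 12.1). That was 67.4% (39.3% to 108%) of the level in monocyte-marked macrophages. Genes high in macrophages were set beside it in the same gate. C1qa stood there at 3.61% of its level in those macrophages, C1qb at 4.03%, C1qc at 3.85% and Apoe at 4.57%. These genes are markers of the C1q macrophage gate, and neutrophil-marked cells that passed that gate were left unclassed. Their shares are thus limited by the gating itself. The MHC class II chaperone Cd74 stood at 3.94% and the lysozyme gene Lyz2, which myeloid cells share, at 11.5%. Neither marks a gate, though leaving those cells out can lower both too. The share of Il10 exceeded that of these 6 genes, but whether its UMIs came from neutrophils was not tested. Of the 17 UMIs, 13 lay in the 1379 cells with under 2500 UMIs, 7.08 CPM (3.77 to 12.1), and 3 in the 5 cells with 10000 UMIs or more. Library 1 gave 0 of 193453 UMIs in 77 neutrophils, where a count of 0 allows up to 15.5 CPM, so no difference between the libraries was detectable in this class.

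How often an Il10 UMI was seen followed the depth of the cell. Among the 1111 monocytes and macrophages of library 2, the share with an Il10 UMI was 7.61% between 5000 and 10000 total UMIs, 12.2% between 10000 and 20000, 20.9% between 20000 and 40000 and 35.7% above. The level in CPM in the same bins was 10.1 (6.42 to 15.2), 11.4 (8.92 to 14.4), 9.19 (6.73 to 12.3) and 11.3 (6.16 to 18.9). The share thus rose with depth while the level stayed within its counting error, so a cell without an Il10 UMI cannot be called a cell without Il10 RNA. By antibody tag, monocytes and macrophages of the BC2 side held 156 UMIs in 1004 cells, 10.9 CPM (9.23 to 12.7), and those of the BC3 side 2 UMIs in 107 cells, 2.87 (0.348 to 10.4).

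**Figure D2:**
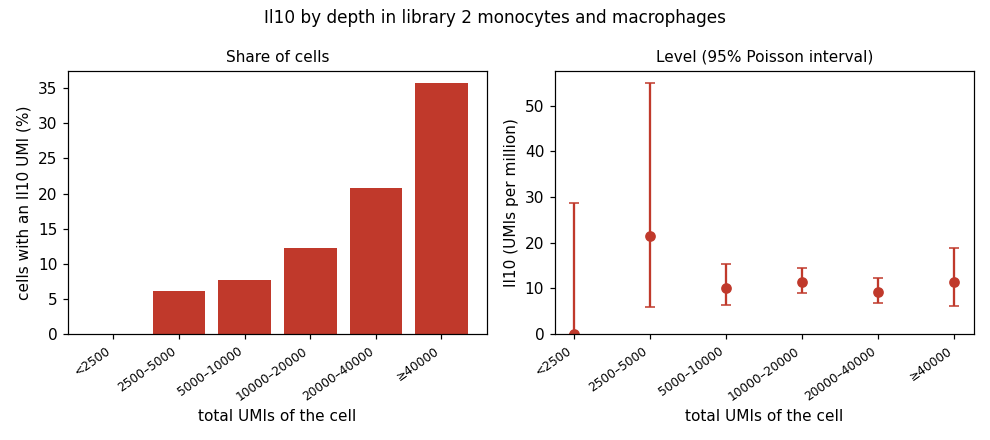
Share of library 2 monocytes and macrophages with an Il10 UMI (left, percent) and Il10 level in CPM with 95% Poisson intervals (right), by total UMIs of the cell (x axis). The share rises from 7.61% to 35.7% over the 4 deepest bins, and the level stays between 9.19 and 11.4.

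Among the other 9 members, Socs3, Nfil3 and Stat3 were highest by value in neutrophils and Il10ra, Etv3 and Tyk2 in dendritic cells, in each library and among the 7 fitted classes. Not all these ranks lay beyond counting error. Intervals overlapped for Stat3 in library 2, at 204 to 244 in neutrophils and 150 to 237 in dendritic cells. They did so for Il10ra in library 1, at 35.4 to 56.9 in dendritic cells and 21.4 to 51.8 in monocytes, and for Tyk2 in library 2, at 29.4 to 74.2 in dendritic cells and 18.4 to 42.8 in C1q macrophages. The statements that follow are on these 7 classes unless another is named. In the test for any difference between the 7 classes, 9 of 10 members passed, against 63.8% of the 8582 genes tested; all 10 members had passed the filter on low counts. Most tested genes thus differed between these classes, and the count of 9 is to be read against that share. Fold changes below are edgeR log2 estimates, n = 2 libraries, after TMM scaling. The value after ± is a standard error derived from the test, as the size of the log2 fold change over the square root of its F value. The scaling set the log2 contrasts against neutrophils lower by 0.53 for C1q macrophages, 0.49 for monocytes and 0.42 for dendritic cells than the ratio of plain CPM.

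**Figure D3:**
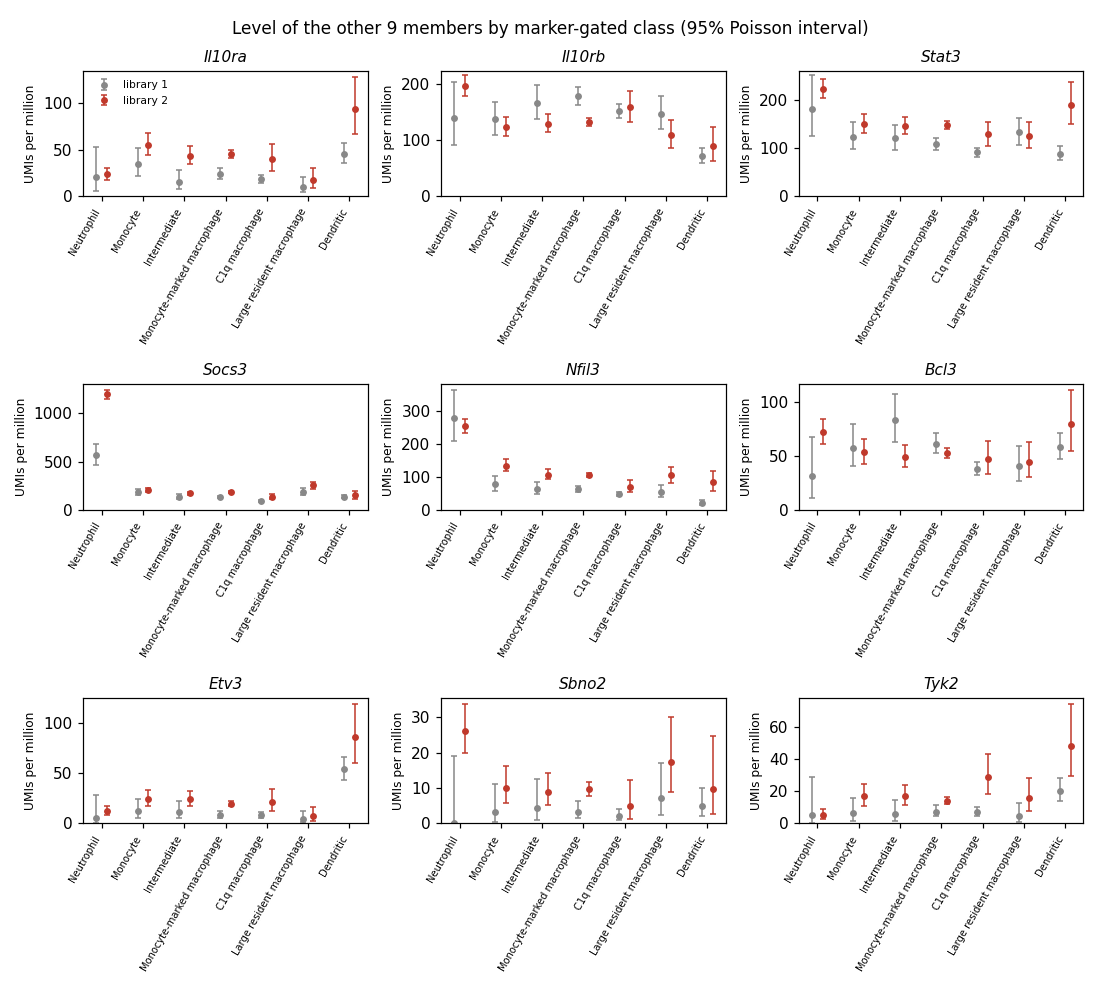
Levels of the 9 members other than Il10 in CPM by marker-gated class (x axis) in library 1 (grey) and library 2 (red), with 95% Poisson intervals. Socs3 and Nfil3 are highest in neutrophils and Etv3 and Tyk2 in dendritic cells in both libraries.

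Of the receptor chains, Il10ra was highest in dendritic cells and Il10rb lowest there. Il10ra stood at 45.2 and 93.7 CPM in dendritic cells of libraries 1 and 2, at 34.2 and 55.1 in monocytes, 15.7 and 43.6 in intermediate cells, 23.5 and 45.3 in monocyte-marked macrophages, 18.1 and 39.6 in C1q macrophages, 20.7 and 23.5 in neutrophils and 10.2 and 17.2 in large resident macrophages. Every fitted class had more in library 2, and within each library dendritic cells came first and large resident macrophages last by value among the fitted classes. Dendritic cells exceeded neutrophils by 1.33 ± 0.26 (adjusted p = 0.000407), and C1q macrophages against dendritic cells gave -1.42 ± 0.22 (adjusted p = 0.000122). Neither call passed without the replicate block. Against monocytes the log2 fold change of C1q macrophages was -0.69 ± 0.23 and did not pass (adjusted p = 0.104).

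Il10rb, which also serves the receptors of IL-22 and of the lambda interferons, stood at 71.5 and 88.9 CPM in dendritic cells. The other 6 classes lay between 109 and 196 in either library, with neutrophils at 140 and 196 and C1q macrophages at 152 and 158. Dendritic cells were thus the lowest class by value in each library. In library 2 their interval, 62.6 to 123, overlapped others, such as that of large resident macrophages, 85.8 to 136. Dendritic cells lay below neutrophils, at -1.73 ± 0.25 (adjusted p = 2.05e-05), and C1q macrophages lay above dendritic cells by 0.87 ± 0.24 (adjusted p = 0.0123), a call lost without the replicate block and with the stricter gate. C1q macrophages against neutrophils gave -0.86 ± 0.22 (adjusted p = 0.00331), a call that depends on the setting. With library totals alone it was -0.27 ± 0.20 (adjusted p = 0.248), with the BC2 side of library 2 alone -0.25 (adjusted p = 0.473) and without the replicate block -0.71 (adjusted p = 0.0618), in a range of 0.000203 to 0.473 over the alternatives that gave a value.

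Tyk2, the kinase bound to Il10rb, was sparse and highest in dendritic cells, at 20.1 and 48.1 CPM. Its levels were 6.88 and 28.8 in C1q macrophages, 6.22 and 16.7 in monocytes and 5.17 and 4.89 in neutrophils, the last from 1 and 11 UMIs. In each library dendritic cells stood above every other fitted class by value. Dendritic cells exceeded neutrophils by 2.71 ± 0.44 (adjusted p = 6.53e-05), monocytes against dendritic cells gave -1.68 ± 0.36 (adjusted p = 0.00276), and C1q macrophages -1.30 ± 0.31 (adjusted p = 0.00494). C1q macrophages exceeded neutrophils by 1.41 ± 0.46 (adjusted p = 0.0138), a call that rests on library 2: with library 1 alone, which held 1 neutrophil UMI, the scaled log2 fold change was -0.51. None of these 4 Tyk2 calls passed without the replicate block.

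Stat3 was highest in neutrophils of library 2, at 223 CPM, and of library 1, at 181. The other classes lay between 88.5 and 132 in library 1 and between 125 and 190 in library 2, and dendritic cells had the widest gap between libraries, 88.5 and 190. All 3 contrasts with neutrophils passed: -1.47 ± 0.20 for C1q macrophages (adjusted p = 8.72e-06), -1.11 ± 0.20 for monocytes (adjusted p = 0.000214) and -1.12 ± 0.21 for dendritic cells (adjusted p = 0.000235). Stat3 overlaps the neighbouring Stat5a, on the other strand, which had 527 UMIs against 4328 of Stat3.

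Among the Stat3 targets, Socs3 and Nfil3 were highest in neutrophils in both libraries. Socs3 stood at 569 and 1196 CPM in neutrophils, a mean of 882 ± 444 (SD, n = 2). Elsewhere it stood at 180 and 202 in monocytes, 136 and 170 in intermediate cells, 130 and 187 in monocyte-marked macrophages, 94.1 and 135 in C1q macrophages, 189 and 252 in large resident macrophages and 136 and 151 in dendritic cells. Neutrophils exceeded all other fitted classes in each library without overlap. A Socs3 UMI was found in 63.6% and 68.2% of neutrophils despite their low depth, and at an equal depth of 1000 UMIs per cell in 39.0% and 62.2%, against 8.46% and 8.06% of C1q macrophages. Relative to neutrophils the log2 fold change was -3.53 ± 0.25 in C1q macrophages (adjusted p = 5.51e-09), -2.74 ± 0.24 in monocytes (adjusted p = 1.23e-07) and -3.01 ± 0.25 in dendritic cells (adjusted p = 4.4e-08). The level also differed by tag side, to which cells with equal tag counts were assigned as BC3. The 26 neutrophils of the BC2 side stood at 566 CPM (424 to 740), near those of library 1, and the 1463 of the BC3 side at 1223 (1177 to 1271). With the BC2 side alone the C1q macrophage contrast was -2.72 ± 0.23 and still passed. Among the macrophages, Socs3 was lower in C1q than in large resident macrophages, at -0.96 ± 0.24 (adjusted p = 0.0243), a call lost without the replicate block.

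Nfil3, a basic leucine zipper repressor through which IL-10 lowers Il12b in mouse macrophages, stood at 279 and 254 CPM in neutrophils. Monocytes had 77.8 and 134, monocyte-marked macrophages 62.9 and 107, C1q macrophages 48.2 and 69.5, large resident macrophages 55.3 and 105, and dendritic cells 20.1 and 84.1. Neutrophils again lay above every other fitted class in both libraries. The contrasts with neutrophils were -2.61 ± 0.25 for C1q macrophages (adjusted p = 1.42e-07), -1.78 ± 0.24 for monocytes (adjusted p = 1.23e-05) and -3.04 ± 0.28 for dendritic cells (adjusted p = 1.33e-07). Monocytes also exceeded dendritic cells by 1.26 ± 0.29 (adjusted p = 0.00451), a call lost without the replicate block.

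Etv3, an ETS family repressor, was the member most set apart in dendritic cells. Its levels there were 54.0 and 86.5 CPM, and those of the other 6 classes lay between 4.37 and 24.2. Against dendritic cells C1q macrophages gave -2.60 ± 0.26 (adjusted p = 1.11e-06) and monocytes -2.12 ± 0.27 (adjusted p = 2.97e-05), the latter lost without the replicate block, and dendritic cells exceeded neutrophils by 2.51 ± 0.32 (adjusted p = 4.53e-06). The few B cells, 11 and 8, held 44.6 and 70.8 CPM from 2 and 3 UMIs.

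Sbno2 and Bcl3 differed less firmly. Sbno2, a corepressor of the NF-κB response, gave 0 and 59 UMIs in neutrophils, 0 and 26.2 CPM, against 2.04 and 4.796 in C1q macrophages, 3.11 and 9.90 in monocytes, 5.02 and 9.61 in dendritic cells and 7.28 and 17.2 in large resident macrophages. Its calls of -2.86 ± 0.48 for C1q macrophages (adjusted p = 7.42e-05), -1.98 ± 0.43 for monocytes (adjusted p = 0.000975) and -1.58 ± 0.49 for dendritic cells (adjusted p = 0.0118) relative to neutrophils thus rest on library 2, since the 0 UMIs of library 1 neutrophils allow up to 15.5 CPM, above the level of every other fitted class there, and so give no direction. The calls for monocytes and dendritic cells were lost without the replicate block, and all 3 with the BC2 side of library 2 alone. Bcl3, an atypical IκB protein that holds p50 dimers on DNA, ranged from 31.0 to 82.9 CPM over the fitted classes of both libraries, with neutrophils lowest in library 1 at 31.0 and second to dendritic cells in library 2, at 72.0 and 79.3. The contrasts with neutrophils passed for C1q macrophages, at -1.30 ± 0.30 (adjusted p = 0.00141), and for monocytes, at -0.83 ± 0.30 (adjusted p = 0.0282), the latter with 0.47 in library 1 alone, where neutrophils held 6 UMIs. The call for monocytes was lost without the replicate block, with DESeq2 and with library totals alone, and both with the BC2 side alone. Bcl3 overlaps an antisense gene, Gm16174, that had 171 UMIs against 1658 of Bcl3.

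**Figure D4:**
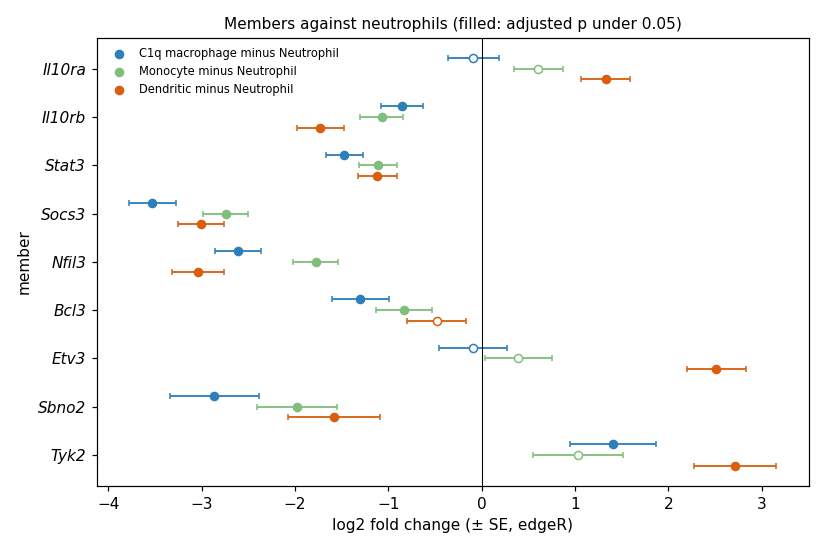
Log2 fold change (x axis, edgeR) of 9 members in C1q macrophages, monocytes and dendritic cells relative to neutrophils, with a standard error derived from the F value of the test. Filled points passed an adjusted p of 0.05. Socs3 lies at -3.53, -2.74 and -3.01 in this order, and Etv3 and Tyk2 of dendritic cells lie highest, at 2.51 and 2.71.

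A promoter of Socs3 and 2 of Sbno2 are shown because these 3 alone, among 9 promoters of the 7 members in the RefSeq promoter table (GRCm38.p6, which shares its coordinates with mm10), hold the palindrome TTCNNNGAA to which activated Stat proteins bind, where N is any base. The window runs from 250 bases before to 50 after the start, the motif reads the same on both strands, and it is in capitals. It occurs in 8.30% of all 32851 promoters of that length. The Socs3 promoter is chr11:117969317-117969616, minus strand, with the motif starting 154 bases before the start. Of the 3 Sbno2 promoters in the table, the 2 with the motif are chr10:80102653-80102952 and chr10:80101138-80101437, both minus strand, with the motif 26 and 24 bases before the start, and that at chr10:80075390-80075689 holds no match.
Socs3: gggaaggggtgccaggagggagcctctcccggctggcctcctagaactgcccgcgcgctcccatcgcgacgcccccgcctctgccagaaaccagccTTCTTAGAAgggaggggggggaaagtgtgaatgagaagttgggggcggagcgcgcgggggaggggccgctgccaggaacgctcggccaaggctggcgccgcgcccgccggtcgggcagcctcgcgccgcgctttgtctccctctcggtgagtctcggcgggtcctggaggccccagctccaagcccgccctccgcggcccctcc
Sbno2, upstream start: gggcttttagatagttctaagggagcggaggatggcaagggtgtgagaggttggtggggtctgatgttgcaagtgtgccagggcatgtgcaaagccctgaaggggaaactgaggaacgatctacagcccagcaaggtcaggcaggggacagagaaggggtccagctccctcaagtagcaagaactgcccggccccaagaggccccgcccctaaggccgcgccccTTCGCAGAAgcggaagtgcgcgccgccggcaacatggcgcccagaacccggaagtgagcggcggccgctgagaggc
Sbno2, downstream start: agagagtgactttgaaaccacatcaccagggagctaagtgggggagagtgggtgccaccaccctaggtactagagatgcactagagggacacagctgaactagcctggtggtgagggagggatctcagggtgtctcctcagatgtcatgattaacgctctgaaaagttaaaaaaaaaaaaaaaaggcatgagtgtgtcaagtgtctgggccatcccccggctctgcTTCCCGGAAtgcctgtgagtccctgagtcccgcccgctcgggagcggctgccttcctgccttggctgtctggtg
Both genes were among the 6 members lower in C1q macrophages than in neutrophils, as were Stat3, Nfil3, Bcl3 and Il10rb; the promoters of Stat3, Nfil3 and Bcl3 in the table hold no match in this window. A match describes these letters and not a bound site. The genes themselves lie at chr1:131019845-131024974 for Il10 and chr11:117966079-117970047 for Socs3 in mm10, plus and minus strand, with no annotated gene overlapping either.

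Counted by pair of classes, C1q macrophages differed from neutrophils in 7 of 10 members, 1 higher and 6 lower, where 60.9% of genes were called, 32.8% higher and 28.1% lower. Monocytes differed from neutrophils in 6, all lower, where 54% were called and 25.7% lower, and dendritic cells in 9, of which Il10ra, Etv3 and Tyk2 were higher and 6 lower, where 56% were called, 30.3% higher and 25.8% lower. The members' median log2 fold changes in these 3 pairs were -1.27, -0.95 and -1.35, against 0.18, 0.14 and 0.14 over all genes. With library totals alone the medians over all genes moved to 0.83, 0.74 and 0.64, and the calls of C1q macrophages against neutrophils from 2817 higher and 2412 lower to 4174 and 1555, of monocytes from 2428 and 2202 to 3872 and 1360, and of dendritic cells from 2599 and 2210 to 3632 and 1502. These 3 pairs share the neutrophil profiles. Differences between the other classes were fewer: C1q macrophages against dendritic cells gave 4 calls (24.9% of genes), 1 higher (11.4%) and 3 lower (13.6%). Monocytes against dendritic cells gave 4 (18.9%), 1 higher (9.03%) and 3 lower (9.9%), and C1q against large resident macrophages 1 (6.09%), which was lower (4.39%). With library totals alone the calls over all genes of C1q macrophages against dendritic cells moved from 976 higher and 1164 lower to 1449 and 1030, and of monocytes against dendritic cells from 775 and 850 to 1056 and 794. C1q macrophages against monocytes gave 0 calls with edgeR (4.7% of genes, 2.28% higher and 2.41% lower), 3 at an unadjusted p under 0.05 and 1 with DESeq2; the lowest adjusted p was that of Nfil3, 0.0636, at -0.83 ± 0.25.

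The genes around the chain were described through 7 lists. Their counts are to be read against all tested genes, of which 63.8% passed the class test and, in C1q macrophages against neutrophils, 32.8% were higher and 28.1% lower, with a median log2 fold change of 0.18. All 9 JAK and STAT relatives passed the class test, 5 of them highest in neutrophils and 4 in dendritic cells. The clearest were Jak2, a kinase of haematopoietic receptors, at 45.2 and 96.1 CPM in dendritic cells, Jak1, the kinase on Il10ra, at 176 and 241 in neutrophils, and Stat5b at 20.7 and 48.4 in neutrophils. Against neutrophils, 8 of the 9 were lower in C1q macrophages and 0 higher, with a median log2 fold change of -1.80. Of 8 other receptors that feed Stat3, the 6 tested all passed: Csf3r, the receptor of G-CSF, led with 724 and 1129 CPM in neutrophils, Il21r with 116 and 149 in dendritic cells and Lifr with 66.8 and 59.95 in C1q macrophages. In this list C1q macrophages were higher than neutrophils in 4 and lower in 2, with a median of 2.41. Of 13 brakes on cytokine signalling, 9 of 11 tested passed, led by Socs1, at 15.5 and 270 in neutrophils, Socs2, at 24.5 and 50.5 in dendritic cells, and the phosphatase Ptpn6, at 383 and 487 in neutrophils. C1q macrophages were lower than neutrophils in 7 of these brakes and higher in 1.

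Genes known to respond to IL-10 did not move as 1 block. All 13 passed the class test, 6 of them highest in neutrophils, but relative to neutrophils C1q macrophages were higher in 5 and lower in 7. Il1r2, the decoy receptor of IL-1, stood at 3205 and 2747 CPM in neutrophils, and Il1rn, the antagonist of the same receptor family, at 140 and 262. Fcgr1, a high-affinity IgG receptor, was highest in intermediate cells at 730 and 1022. Genes known to be held down by IL-10 were highest in neutrophils for 7 of the 10 tested of 15, all 7 passing, with 1 further gene passing elsewhere. Il1b stood there at 2388 and 4967, the chemokine Cxcl2 at 8555 and 6709 and the prostaglandin synthase Ptgs2 at 46.5 and 164. C1q macrophages were lower than neutrophils in 8 of the 10 and higher in 1, with a median of -3.64, beside 28.1% of all genes lower and a median of 0.18. Il12b and Il23a, at 0 and 1 UMI each, were not tested.

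Among 16 regulators of Il10, 10 of 15 tested passed, 66.7%, close to the 63.8% of all genes. Maf, a transcription factor that activates Il10, was highest in C1q macrophages at 317 and 307 CPM, Bhlhe40, which represses it, in dendritic cells at 206 and 137, and the phosphatase Dusp1 in neutrophils at 1468 and 1188. Of the 11 other ligands and receptors of the IL-10 family, 0 reached the class test and 7 had 0 UMIs in both libraries: Il19, Il22, Il24, Ifnl2, Ifnl3, Il20ra and Il22ra1. A count of 0 at this depth does not show absence.

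Likeness to 3 members was ranked by Pearson's r of log2(CPM + 10) over the 14 profiles of class and library, which share libraries and depth and are given as a description. Closest to Il10 were Mpeg1 (0.95), Thy1 (0.94), Gbp9 (0.92), Atp8a1 (0.91) and Gbp6 (0.90), all over profiles in which the 2 libraries differed for Il10. Closest to Il10ra were Mapkapk3 (0.91), the member Etv3 (0.90), Hpcal1, Klrk1 and Bcl2a1a (each 0.90), with Tyk2 at 0.82 and Il10rb at -0.56. Closest to Socs3 were Ikbkap (0.98), Usp32 (0.97), Upf2 (0.97), Hist1h2be (0.97) and Rapgef6 (0.96), with Nfil3 at 0.82 and Stat3 at 0.76.

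Cells with an Il10 UMI were then compared with the other cells of library 2. They were deeper, with a median of 13173 UMIs against 1834, so each was set against cells of the same class and a like depth, and the UMIs observed were divided by those expected. This is 1 library, so the ratios carry a Poisson interval of the observed count and no test. Of 147 gated cells, 146 could be matched, to 2040 others. None of the 9 remaining members was past a 1.5-fold ratio in either direction, while 2.44% of 6553 genes were, 60 higher and 100 lower, around a median of 0.997.

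Both receptor chains were close to the expected counts: Il10ra had 119 UMIs where 120 were expected, a ratio of 0.99 (0.82 to 1.18), and Il10rb 329 where 332 were expected, 0.99 (0.887 to 1.10). In monocyte-marked macrophages of 8192 to 32768 UMIs, not matched further on depth, Il10ra was found in 60.9% (47.9% to 72.9%) of 64 cells with an Il10 UMI and in 42.1% (37.3% to 46.9%) of 428 without. Stat3 stood at 0.92 (0.827 to 1.02), Nfil3 at 0.99 (0.869 to 1.11) and Bcl3 at 1.01 (0.844 to 1.19). Socs3 was the 1 member whose interval lay wholly above 1, at 1.10 (1.01 to 1.202), from 493 UMIs where 448 were expected. Of 6553 genes 8.09% had such an interval, so 1 of 9 members is near that share. Etv3 stood at 1.30 (0.997 to 1.66), Tyk2 at 1.23 (0.893 to 1.66) and Sbno2 at 1.14 (0.755 to 1.64), on 63, 43 and 28 UMIs. Without an account of depth or class, Socs3 came to 0.57 (0.524 to 0.621) and Nfil3 to 0.77 (0.682 to 0.863). Neutrophils, the class highest in both genes, made up 1489 of the 2847 filtered cells of this library. In the 91 cells with an Il10 UMI among monocyte-marked macrophages, an alternative chosen after the values were seen, all 9 members also stayed within 1.5-fold. With every cell thinned to 5000 UMIs in place of matching on depth, they did so too, but Socs3 came to 1.01 (0.851 to 1.19), Il10ra to 1.28 (0.895 to 1.79), Il10rb to 1.19 (0.977 to 1.44) and Nfil3 to 0.85 (0.663 to 1.08), so no member had an interval that left out 1.

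**Figure D5:**
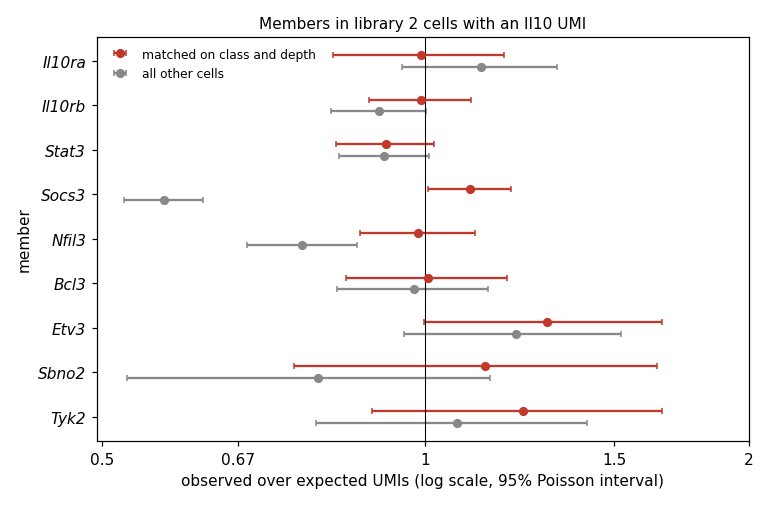
Observed over expected UMIs (x axis, log scale, 95% Poisson intervals) of 9 members in library 2 cells with an Il10 UMI, against cells matched on class and depth (red) and against all other cells (grey). Matched ratios lie between 0.92 and 1.30, and Socs3 moves from 0.57 to 1.10.

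Outside the chain several of the highest ratios came from a few cells. Ccl8, a ligand of CCR8 in mice, had 880 UMIs where 93.7 were expected, a ratio of 9.39, but 92.5% of them lay in 5 cells and 44.3% in 1. Cxcl3, a neutrophil attractant, reached 2.84 (591 UMIs), with 44.5% in 5 cells, and the platelet chemokine Ppbp 1.92 (970 UMIs), with 53.6% in 5. Of the 30 UMIs of Ifng, at 2.02, 28 lay in 1 cell. The rest of the 10 highest, Ylpm1 (1.97), Mcm4 (1.95), Cpne8 (1.93), Arfgef2 (1.90), Rab33b (1.88) and Zfp738 (1.83), rested on 32 to 52 UMIs each. The 5 lowest were Ube2c (0.13), Birc5 (0.21) and Stmn1 (0.28), genes of dividing cells, with the lysozyme gene Lyz1 (0.27) and Wdr81 (0.35), on 4 to 16 UMIs each.

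Of the 15 genes known to be held down by IL-10, 9 had at least 30 UMIs observed or expected in these cells. The interval lay wholly above 1 for 5 of the 9 and wholly below 1 for 0, as it did for 8.09% and 7.45% of the 6553 genes. Such intervals are narrow for abundant genes, and they take no account of UMIs that lie together in a few cells. Of the Tnf UMIs 31.7% lay in 5 cells. How those of Ccl3, Ccl4, Cxcl2 and Il1b were spread over cells was not examined. Tnf had 41 UMIs where 24.1 were expected, a ratio of 1.70 (1.22 to 2.30), and Ccl3 stood at 1.38 (1.25 to 1.51), Ccl4 at 1.29 (1.202 to 1.38), Cxcl2 at 1.28 (1.24 to 1.32) and Il1b at 1.22 (1.14 to 1.30). Ptgs2 stood at 1.37, Cd86 at 0.93, Cxcl10 at 0.96 and Irg1 at 0.91, with intervals that hold 1. Among responders and regulators Mrc1 stood at 1.25 (1.17 to 1.35), Cd163 at 1.23 (1.06 to 1.40) and Maf at 1.13 (1.05 to 1.21). Jak3 was at 1.45 (1.09 to 1.89), while Stat6, the factor behind IL-4 responses, was at 0.70 (0.588 to 0.836) and Il11ra1 at 0.66 (0.484 to 0.876). Apart from the 15 genes of the first list, these were singled out after their values were seen.

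Split by Cxcl3, the same monocytes and macrophages of library 2 restate the ratio above and are no further evidence. The 882 cells without Cxcl3 stood at 8.40 CPM of Il10 (6.77 to 10.3), the 137 with 1 to 4 UMIs at 10.3 (6.70 to 15.02) and the 92 with 5 or more at 24.3 (17.5 to 33.0). For the other 3 genes divided in this way the intervals overlapped: Il10 stood at 10.1, 11.9 and 15.5 CPM by Ccl8, at 8.95, 10.3 and 11.8 by Mrc1 and at 9.04, 11.9 and 11.7 by Il10ra.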

How the data were processed

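Whole-number UMI counts per gene and cell were made by the authors with Cell Ranger 3.0.1 on mm10, per the submitters' processing notes, and deposited as 1 filtered matrix per library; whether counting used strand is not given in the sources used here. The members, lists and gates were chosen with earlier results of these data known. Kept cells had at least 300 genes and at most 10% mitochondrial UMIs. Not classed were cells marked for more than 1 lineage (27 and 113), which stood in for a doublet caller. Cells were classed by summed marker UMIs per 10000, with at least 3 marker UMIs: 200 for neutrophils, 10 for B and dendritic cells, 5 for T or NK cells, 20 for large resident macrophages, 40 for C1q macrophages (divided at 50 of monocyte markers) and 30 for monocytes. Of 751 and 1067 mononuclear cells by library, 35 and 62 lay within 10% of the C1q threshold of 40. The classes are rebuilt from markers, and no annotation by the authors was used.

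UMIs were summed per library and class. The 7 classes with at least 20 cells in each library were fitted with edgeR 4.0.16 in R 4.3.3 (TMM, filterByExpr, quasi-likelihood test, class and library as terms, Benjamini-Hochberg over 8582 genes, 0.05); all adjusted p-values are from this test unless another is named. The library is the replicate number of the labels and pairs the classes, since all classes of a library were sequenced in it together. Whether a library held 1 sorted sample is not given. Library 2 carried 2 tags and held cells with Xist alone and cells with Y-linked RNA alone. There 1463 of 1489 neutrophils lay on the BC3 side, so its contrasts with neutrophils may compare tag sides as well as classes. On simulated counts for C1q macrophages against monocytes, 86% of 2-fold and 100% of 4-fold changes were recovered. The changed genes were drawn from the better expressed ones alone. This recovery thus does not cover genes as sparse as Il10, Il10ra, Etv3, Sbno2 and Tyk2. Intervals are exact Poisson or Clopper-Pearson at 95% (scipy 1.17.1) and cover counting error only. Shares at equal depth used 1000 UMIs per cell. Cells with an Il10 UMI were matched on class and strata of 0.5 log2 units of depth. Named were all members, the 3 genes of each list with the smallest class-test p that passed, list genes with 0 UMIs, the 10 highest and 5 lowest ratios among genes with at least 30 UMIs observed or expected, and the 5 genes most like Il10, Il10ra and Socs3; exceptions are stated. Alternatives were DESeq2 1.42.0, RLE scaling, no filter, no replicate block, a stricter gate, Leiden clusters, the BC2 side of library 2, each library left out and, added after seeing the data, library totals alone.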

Additional observations from a re-analysis of the deposited data

How the results depend on the processing

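The replicate block, which pairs the classes of a library, carried many calls. Without it 5 of the 9 members that differed between classes passed, 1 of 4 for C1q macrophages against dendritic cells, 0 of 1 against large resident macrophages, 0 of 4 for monocytes against dendritic cells and 5 of 9 for dendritic cells against neutrophils. Of the 31 called differences between pairs, 15 kept their call without the block, 28 with DESeq2, 31 with RLE scaling, 30 with no filter and 28 with library totals alone, an alternative chosen after seeing the data. With the BC2 side of library 2 alone, which leaves 26 neutrophils there, 21 kept it: 3 members passed for C1q macrophages against neutrophils and 3 for monocytes against neutrophils, and Sbno2 in dendritic cells against neutrophils turned to 0.026. C1q macrophages against monocytes had 0 calls, but 1 with DESeq2, 1 with RLE scaling, 2 with no filter and 1 with library totals alone. With no filter edgeR gave the common trend of the spread full weight (an infinite median prior, against a median of 10.99 degrees of freedom with the filter), so its p-values, such as 3.04e-98 for Socs3 between classes, are too small to weigh a call by, and they set the lower ends of the ranges given for Il10 and Il10rb. With 1 library left out no test is possible. Tyk2 in C1q macrophages against neutrophils then ranged from -0.51 to 1.83, Bcl3 in monocytes against neutrophils from -1.09 to 0.47, Sbno2 in monocytes against neutrophils from -2.03 to 0.26 and in dendritic cells against neutrophils from -1.95 to 0.87, with the opposite sign in library 1; for Sbno2 that sign follows from the prior count, since library 1 neutrophils held 0 UMIs, and is no measured reversal. Beside these 4, 18 of the 31 differences moved by more than 1 SE with library 1 alone and 12 with library 2 alone, in the same direction. Il10 in monocyte-marked macrophages ranged from 1.45 to 11.2 CPM and Socs3 in neutrophils from 569 to 1196. In cells with an Il10 UMI, 1 member passed 1.5-fold with no account of depth or class, and 4 did in the 7 such cells of library 1. Thinning the cells moved 6 of 11 ratios outside the interval of the matched ratio, with 0 members past 1.5-fold. Clusters gave only the overall test and dendritic cells against neutrophils, and Il10 was not tested with clusters, the stricter gate or the BC2 side. Where no value above shows it, the cause was not tested. Depth limits Il10, Sbno2 and Tyk2 most.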
